A study of Mus musculus with 24 samples.

Results

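B16-D-739 is a melanoma cell line of the second generation of dormant cells, and it was compared here with its parental line B16-M at the level of RNA. The arrays were chosen by their titles alone. The 3 arrays titled B16-D-739 were set against the 3 titled B16-M, out of 17 melanoma arrays and 24 arrays in the whole series. The parental line is B16-F1GFP-M, the mouse melanoma line B16-F1 marked with GFP. Dormant cells of it (B16-F1GFP-D, here B16-D) had come from minimal residual disease in a syngeneic mouse model in which animals were vaccinated with irradiated cells making GM-CSF. The second generation was derived from a brain site and holds lines DB#1, DB#2 and DB#3, while the arrays are titled B16-D-733, B16-D-735 and B16-D-739, and which DB line is B16-D-739 was not given in the sources used here. All lines carried GFP and were grown in culture in DMEM with 10% FBS, and the labels name no further treatment. B16-D-739 and B16-M are each 1 line, and nothing in the labels says that arrays of a line came from separate cultures, so the p-values measure the spread between arrays only.

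Tumour dormancy is a state in which cancer cells persist for long periods after treatment or immune control without growing out. In melanoma, work on such cells has centred on the pigment cell program driven by MITF, on undifferentiated or neural crest-like states, on immune visibility through interferon signalling and MHC class I, and on the surrounding matrix. What is compared below is the expression of cells in culture, not in the host.

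RNA of each sample was measured on a 1-colour Agilent mouse array. Levels below are log2 values of the processed probe signal minus the 75th percentile of its array, so 0 is the level of that percentile and differences of 1 are 2-fold. A probe was called measured where the scanner software placed it well above background, which held for 50.9 to 54.1% of probe spots on these 6 arrays. Each of 3 slides carried 1 array of each line, and 3 values given together follow the order of slides 1, 2 and 3. In all fits 1 of the 4 B16-D arrays was left out because 90.3% of its spots were above background, and with it in the fit the count of genes that differed between B16-D-739 and B16-M was 1191 instead of 1584. All 9 melanoma markers (Mitf, Sox10, Pmel, Mlana, Tyr, Tyrp1, Dct, Slc45a2 and Gpr143) were above background on all 6 arrays and none of them passed the test of a difference, with summed levels of 10.57 to 10.72 in B16-D-739 and 10.59 to 10.73 in B16-M. The 12 leukocyte markers had summed levels of 2.92 to 3.61 in B16-D-739 and 2.88 to 3.80 in B16-M, none of the 6 tested passed, and Cd3e, Cd4, Itgam, Cd68 and Csf1r were above background on all 6 arrays. The leukocyte markers Ptprc, Cd8a, Adgre1, Lyz2 and Tyrobp, the endothelial markers Cdh5, Kdr, Tek, Emcn and Cldn5 and the fibroblast markers Dcn, Lum, Col3a1, Thy1 and Rgs5 were above background on no array of either line. Of the brain cell markers, Mbp of oligodendrocytes (-1.55, adjusted p = 0.026) and Tmem119 of microglia (-1.06, adjusted p = 0.0405) fell. In RNA of whole cultures, fewer cells of a type and less RNA per cell cannot be told apart.

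B16-D-739 differed from B16-M in 1584 of 22337 tested genes and unnamed transcripts, 898 higher and 686 lower, at a Benjamini-Hochberg adjusted p under 0.05 in limma with slide as a block. That is 7.09% of all tested, 4.02% higher and 3.07% lower, and without the block the count was 911. The spread behind every SE, interval and p-value was estimated over the 16 melanoma arrays of the fit, and n counts the arrays compared. All 1584 had the same sign on each of the 3 slides, and in 1448 of them the 3 arrays of the lines did not overlap, against 20.1% of all tested genes without overlap. The calls were made on these same arrays, so neither count is separate evidence for them. Of the called genes, 303 were at least 2-fold higher and 210 at least 2-fold lower, while 61 were at least 8-fold higher and 26 at least 8-fold lower. Among those that rose, 103 were above background on no B16-M array, and among those that fell, 51 were above background on no B16-D-739 array. For such genes only a lower limit of the fold is given, reached by setting the dim line to the lowest signal called above background on each of its arrays. The count depended on the arrays used. It was 737 and 724 without B16-M replicates 1 and 2, and 768, 913 and 694 without B16-D-739 replicates 0, 1 and 2.

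The 12 named genes with the largest fitted rises, taken only from genes without overlap of the arrays, are described first, with their roles. Where B16-M was above background on no array the fitted value sets the order only, and some unnamed transcripts and genes measured in both lines rose by more than a limit given here. Hapln1, which links hyaluronan to proteoglycans in the extracellular matrix, was 0.43, 0.33 and -0.44 in B16-D-739 and -7.11, -7.18 and -7.11 in B16-M. The lines were far apart, with B16-M near the array floor, and Hapln1 was at least 31.8-fold higher in B16-D-739 (adjusted p = 9.41e-06). Fkbp10, a chaperone of collagen folding in the endoplasmic reticulum, was 2.43, 2.27 and 2.47 in B16-D-739 and -4.17, -4.43 and -3.75 in B16-M. It was above background in both lines and differed by 6.50 ± 0.23 (SE, n = 3 and 3; adjusted p = 4.72e-08), a 90.8-fold rise. Myl9, the regulatory light chain of smooth muscle and non-muscle myosin, was 1.36, 0.94 and 1.39 in B16-D-739 and -4.87, -4.98 and -5.62 in B16-M, at least 67.9-fold higher (adjusted p = 2.02e-07). Rcn3, a calcium-binding protein of the secretory pathway that acts in collagen production, was 0.81, 0.65 and -0.15 in B16-D-739 and -4.23, -4.22 and -4.62 in B16-M and rose by 4.79 ± 0.28 (SE, n = 3 and 3; adjusted p = 1.99e-06).

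The other genes of this group were above background on all 3 B16-D-739 arrays and on at most 1 B16-M array. Emilin1, an elastic fibre glycoprotein, was -0.88, -1.23 and -1.26 in B16-D-739 and -7.10, -6.88 and -6.90 in B16-M. Col4a1, a chain of basement membrane collagen IV, was -1.52, -1.88 and -1.96 in B16-D-739 and -6.59, -6.42 and -6.47 in B16-M. They were at least 13.5-fold and at least 8.55-fold higher (adjusted p = 3.1e-09 and 1.59e-07). Ctf1 encodes cardiotrophin, a cytokine that signals through LIFR and gp130, and was -1.43, -1.19 and -0.98 in B16-D-739 and -7.07, -6.89 and -7.03 in B16-M. The necroptosis kinase Ripk3 was -2.06, -2.44 and -2.18 in B16-D-739 and -6.94, -6.83 and -6.93 in B16-M. Ctf1 was at least 12.8-fold and Ripk3 at least 6.3-fold higher (adjusted p = 6.45e-09 and 4.43e-07). Olfml1, an olfactomedin domain protein, and the tight junction protein Cgnl1 were at least 10.4-fold and at least 9.33-fold higher (adjusted p = 4.72e-08 and 4.72e-08), again with no B16-M array above background. Fabp3, a fatty acid carrier, and Gsta4, a glutathione transferase that clears lipid peroxidation products, were above background on 1 B16-M array each. Fabp3 rose by 4.92 ± 0.30 (SE, n = 3 and 3; adjusted p = 2.43e-06) and Gsta4 by 4.75 ± 0.39 (SE, n = 3 and 3; adjusted p = 2.42e-05).

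**Figure D1:**
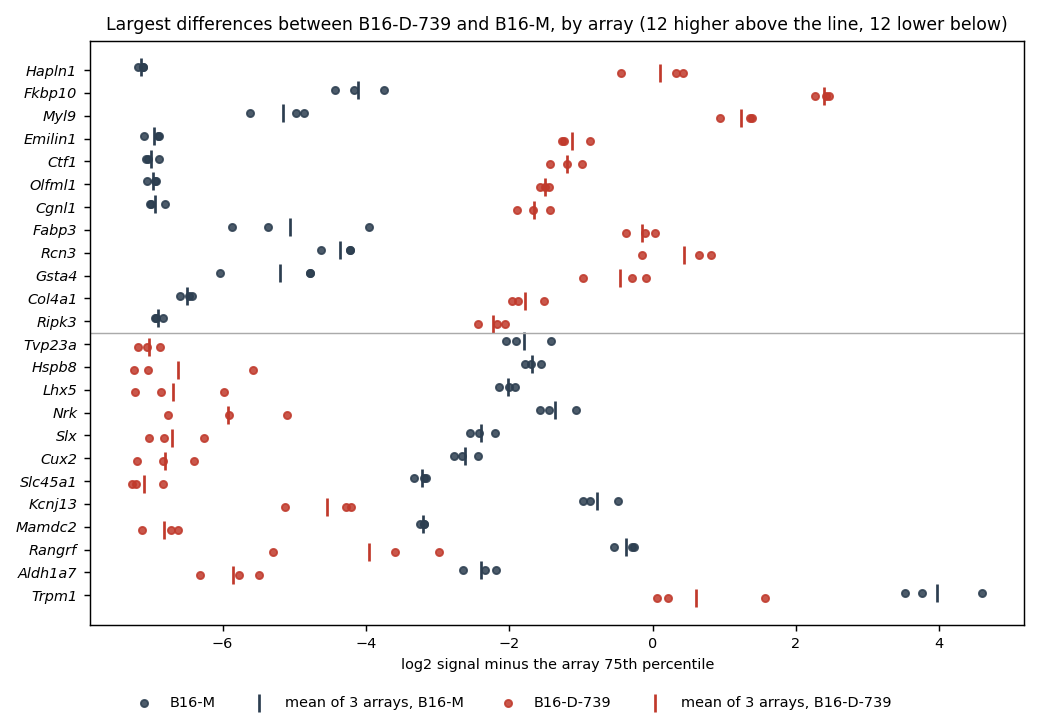
Level of the 24 genes with the largest fitted differences between the lines among called genes with a symbol and no overlap of the arrays, as log2 signal minus the array 75th percentile (x axis). Each point is 1 of 3 arrays, blue for B16-M and red for B16-D-739, and the vertical ticks are the means of the 3 arrays. The 12 genes above the line are higher in B16-D-739 and the 12 below are lower, and absence of overlap between red and blue points was a condition of the choice.

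Of the 12 genes with the largest fitted falls, chosen in the same way, 9 were above background on no B16-D-739 array. Tvp23a, a Golgi membrane protein, was -6.87, -7.18 and -7.05 in B16-D-739 and -2.05, -1.91 and -1.42 in B16-M, at least 8.58-fold lower (adjusted p = 9.15e-07). The small heat shock protein Hspb8, a partner of BAG3 in chaperone-assisted autophagy, was -5.58, -7.04 and -7.23 in B16-D-739 and -1.70, -1.78 and -1.55 in B16-M. The homeobox gene Lhx5 was -6.86, -7.22 and -5.99 in B16-D-739 and -2.01, -2.14 and -1.91 in B16-M. They were at least 9.29-fold and at least 7.31-fold lower (adjusted p = 0.000175 and 2.04e-05). The kinase gene Nrk (at least 11.6-fold lower), the neuronal homeobox gene Cux2 (at least 4.82-fold), the X-linked testis gene Slx (at least 5.65-fold), the retinaldehyde dehydrogenase relative Aldh1a7 (at least 5.66-fold), the sugar transporter gene Slc45a1 (at least 3.18-fold) and Mamdc2 (at least 3.21-fold) were all above background on each B16-M array and on no B16-D-739 array, with adjusted p from 1.99e-06 to 0.00327. Slx belongs to a family of near-identical copies, so its probe cannot assign the signal to 1 copy.

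Kcnj13, Rangrf and Trpm1 kept some signal. Kcnj13 encodes an inward rectifier potassium channel of pigment epithelium and was -4.21, -4.28 and -5.13 in B16-D-739 and -0.88, -0.96 and -0.48 in B16-M, a difference of -3.77 ± 0.42 (SE, n = 3 and 3; adjusted p = 0.000291). Rangrf, a Ran-binding regulator of nuclear transport, was -5.29, -3.60 and -2.99 in B16-D-739 and -0.29, -0.54 and -0.26 in B16-M. The B16-D-739 arrays of Rangrf were widely spread but all below B16-M, and it fell by 3.59 ± 0.40 on the log2 scale (SE, n = 3 and 3; adjusted p = 0.00029). Trpm1, a melanocyte channel gene and MITF target whose intron holds a microRNA gene, was 0.055, 0.21 and 1.57 in B16-D-739 and 3.53, 3.76 and 4.60 in B16-M. It differed by -3.35 ± 0.64 (SE, n = 3 and 3; adjusted p = 0.01), and by -3.55 to -3.02 on the 3 slides. All 24 genes kept their direction in every alternative in which they were tested. Trpm1 lost its call without B16-D-739 replicate 1 (adjusted p = 0.0554) or replicate 2 (adjusted p = 0.0575), and the other 23 kept theirs without any single array.

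Across 32 lists of related genes, the interferon response and cholesterol synthesis lists held the highest shares of members that fell, and the stem-like, MHC class I and matrix lists held the highest shares that rose. The place of the matrix list rests on members measured in B16-D-739 alone, since over members above background on all 6 arrays 2 of 15 rose. These counts are set against 4.02% higher and 3.07% lower among all genes and unnamed transcripts tested. The lists hold named genes only. Of the 13436 tested entries with a symbol 1270 were called, a larger share than the 7.09% of all tested. The shares of all tested are thus a low bar for these lists. The lists were chosen with earlier results of these data known, so their shares are no independent evidence. Members are not independent of each other, and the lists were described by counts and medians with no test of the list.

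**Figure D2:**
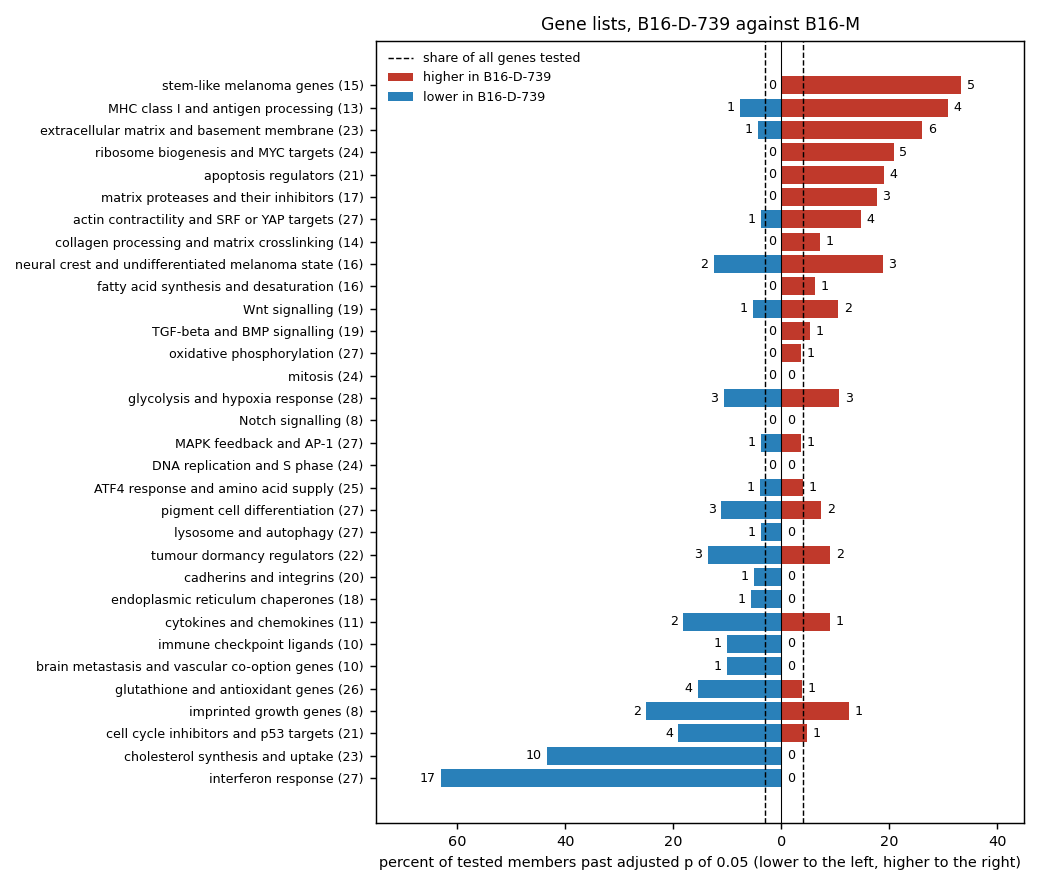
Share of tested members of each gene list past an adjusted p of 0.05 in B16-D-739 against B16-M, in percent (x axis, lower to the left in blue and higher to the right in red). The number of tested members stands in brackets, the number past the threshold at the bar ends, and the dashed lines are the shares of all 22337 tested. Interferon response (17 of 27 lower) and cholesterol synthesis (10 of 23 lower) extend furthest to the left.

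Many genes induced by interferon fell in B16-D-739. Interferons act through JAK kinases and a complex that holds STAT2 and IRF9, which binds the interferon-stimulated response element in promoters of antiviral genes. Of 32 listed genes, 30 had a probe and 27 were tested. Of these 17 fell (63.0%, against 3.07% of all genes and unnamed transcripts tested) and none rose. The median log2 difference was -1.01, or -0.91 with the 3 genes above background on no B16-D-739 array set to their limits. Over the 22 members above background on all 6 arrays, 13 fell and none rose, with a median of -0.85. The promoters of several of these genes share the core of that element, and 4 are shown to let its position be seen, 3 of genes that fell and 1 (Isg15) of a gene that did not pass. They are 300-base windows from RefSeq, GRCm38.p6, from 250 bases before to 50 after the gene start, written 5′ to 3′ on the strand of the gene, with matches on either strand to GAAA, any 2 bases and GAAA again in capitals, overlapping matches run together. They lie at chr8:71537423-71537722 (Bst2, minus strand), chr5:120907476-120907775 (Oas1a, minus), chr11:58199306-58199605 (Igtp, plus) and chr4:156200769-156201068 (Isg15, minus).
Bst2: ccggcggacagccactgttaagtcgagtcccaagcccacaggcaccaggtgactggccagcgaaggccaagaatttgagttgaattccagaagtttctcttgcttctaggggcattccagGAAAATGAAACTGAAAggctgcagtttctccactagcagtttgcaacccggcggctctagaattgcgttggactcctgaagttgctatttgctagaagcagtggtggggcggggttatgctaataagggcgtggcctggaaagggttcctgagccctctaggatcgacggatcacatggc
Oas1a: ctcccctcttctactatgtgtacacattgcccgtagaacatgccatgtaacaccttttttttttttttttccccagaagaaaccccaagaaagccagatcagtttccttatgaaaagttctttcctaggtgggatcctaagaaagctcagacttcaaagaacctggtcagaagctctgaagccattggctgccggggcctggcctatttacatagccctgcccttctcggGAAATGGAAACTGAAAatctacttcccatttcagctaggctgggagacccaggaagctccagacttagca
Igtp: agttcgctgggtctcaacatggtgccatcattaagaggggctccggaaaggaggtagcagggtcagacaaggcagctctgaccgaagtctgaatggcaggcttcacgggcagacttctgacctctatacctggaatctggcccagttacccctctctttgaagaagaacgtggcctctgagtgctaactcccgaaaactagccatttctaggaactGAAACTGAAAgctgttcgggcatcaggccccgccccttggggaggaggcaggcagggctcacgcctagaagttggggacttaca
Isg15: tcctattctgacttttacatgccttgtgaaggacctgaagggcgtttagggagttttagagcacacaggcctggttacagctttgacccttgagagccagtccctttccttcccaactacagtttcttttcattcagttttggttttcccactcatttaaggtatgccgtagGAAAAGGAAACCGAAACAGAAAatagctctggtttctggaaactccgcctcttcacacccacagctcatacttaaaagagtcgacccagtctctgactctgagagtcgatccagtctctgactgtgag

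The motif was present in 1131 of 32851 promoter windows (3.44%), or in 3.99% of genes with a window, and in 16 of the 25 interferon list genes that had one, 7 of the 12 that fell among them. Members that did not pass, such as Isg15, Ifit1 and Gbp3, held it too, and a match describes letters in the window only. The same search with CACCCCA found 2 of 16 cholesterol genes (Hmgcs1 and Srebf2, against 8.66% of genes), and with CACGTG 4 of 17 ribosome biogenesis genes (against 8.09% of genes), none of them past the threshold.

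Signalling components and antiviral effectors were both among the 17. Stat2 fell by 1.03 ± 0.25 and Irf9 by 0.91 ± 0.16 on the log2 scale, and Irf7, the factor that amplifies the response, was -2.45, -2.39 and -2.29 in B16-D-739 and -0.56, -1.25 and -1.18 in B16-M. No array of B16-D-739 reached any array of B16-M in these 3 genes, and their adjusted p ran from 0.00403 to 0.0328. Oas2, an RNA-sensing 2-5A synthetase, was -6.32, -5.54 and -5.66 in B16-D-739 and -3.35, -3.17 and -3.51 in B16-M. Igtp, an immunity-related GTPase, was -4.57, -4.99 and -5.14 in B16-D-739 and -2.18, -2.32 and -2.88 in B16-M. Both were above background on no B16-D-739 array, at least 2.92-fold and at least 5.19-fold lower (adjusted p = 0.00018 and 0.000137). Usp18, the ISG15 protease that damps the receptor, fell by 2.15 ± 0.29 and the RNA sensor Ddx58 (RIG-I) by 1.41 ± 0.21 on the log2 scale (adjusted p = 0.00118 and 0.00223). The membrane tether Bst2, at a high level in both lines, was 3.41, 2.79 and 2.75 in B16-D-739 and 3.89, 3.47 and 3.68 in B16-M (adjusted p = 0.00125). Oas1a, Ifi27, Parp14, Xaf1, Rsad2, Oasl2, Ifi35 and Irgm1 also fell, from -1.91 (Xaf1) to -0.41 (Irgm1), and Oas1a has near-identical relatives whose RNA its probe may share.

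The other 10 members did not pass. Ifit1, Ifit2, Irf1 and the chemokine gene Cxcl10 lay between -0.055 and 0.55 with overlapping arrays. Isg15 (-1.10, adjusted p = 0.17), Ifih1 (-0.72, adjusted p = 0.153), Ifit3, Gbp2 and Gbp3 were lower without overlap of the arrays but missed the threshold, and Oasl1 was 0.65, adjusted p = 0.616. The count of members that fell was 11 without the slide block, 11 without B16-M replicate 2, 11 without B16-D-739 replicate 2, and 4, 10 and 2 without slides 1, 2 and 3, while the median stayed between -1.09 and -0.81 in the fits without 1 array.

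In the MHC class I list 4 genes rose, and 2 without any of B16-M replicates 1 and 2 and B16-D-739 replicates 1 and 2. H2-K1, a classical class I heavy chain that presents peptides to CD8 T cells, was 2.01, 2.10 and 2.21 in B16-D-739 and 0.03, 0.31 and 0.048 in B16-M, 3.94-fold higher (log2 difference 1.98 ± 0.13, SE; adjusted p = 5.15e-06). H2-D1 (0.85, adjusted p = 0.0073), the non-classical H2-T23 (0.87, adjusted p = 0.0243) and the immunoproteasome subunit Psmb10 (0.36, adjusted p = 0.0453) rose as well, and the peptide-loading factor Tapbp fell (-0.95, adjusted p = 0.00683). H2 genes are near-identical in sequence, so their probes may share RNA. Of 13 tested members 4 were thus higher and 1 lower. B2m, the light chain of all class I molecules, was 4.43, 4.60 and 4.64 in B16-D-739 and 4.60, 4.80 and 4.79 in B16-M, lower on each slide, with a difference of -0.17 ± 0.13 (SE, n = 3 and 3; adjusted p = 0.49), and Tap1, Tap2, Erap1 and H2-Q4 did not pass. Nlrc5, the transactivator of class I genes, was 0.81, adjusted p = 0.125, and Cd274, the checkpoint ligand PD-L1, -0.79, adjusted p = 0.0604. Havcr2, which encodes the checkpoint receptor TIM-3, was -2.60, -2.37 and -2.77 in B16-D-739 and -0.59, -0.62 and -0.49 in B16-M, 4.04-fold lower and well separated (adjusted p = 4.43e-05), and was the 1 checkpoint gene of 10 tested that passed.

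**Figure D3:**
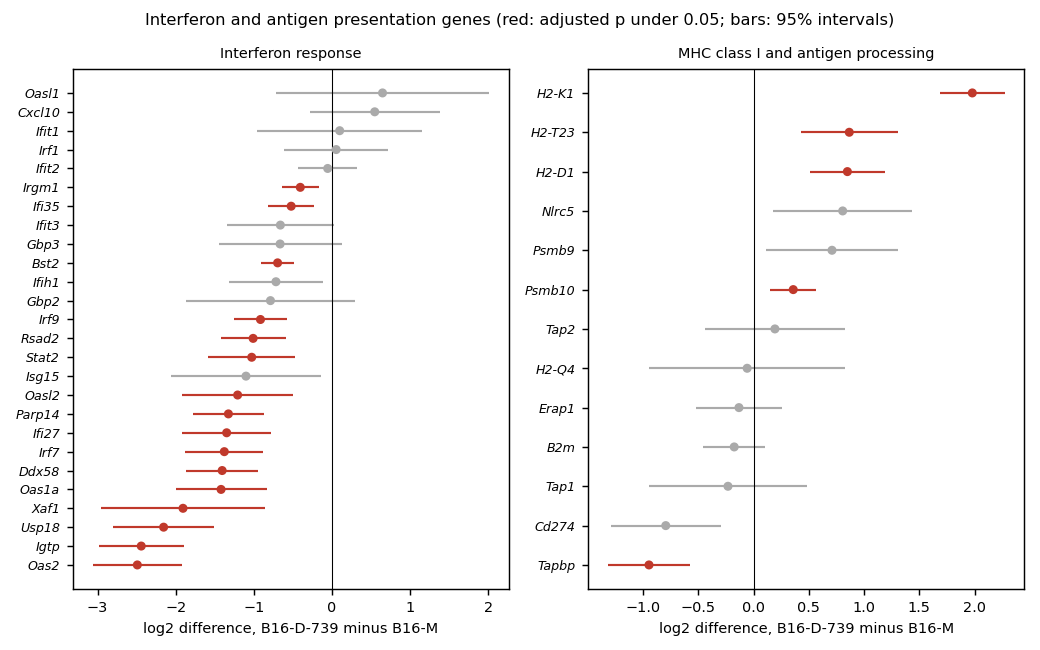
Log2 difference of B16-D-739 minus B16-M (x axis) for the tested members reported here of the interferon response list (left) and the MHC class I list (right), with 95% confidence intervals as bars and members past an adjusted p of 0.05 in red. All red interferon genes lie below 0, while H2-K1, H2-T23, H2-D1 and Psmb10 lie above 0 and Tapbp below.

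Enzymes from several steps of cholesterol synthesis fell in B16-D-739, each by less than 2-fold. The pathway turns acetyl-CoA into mevalonate, squalene, lanosterol and cholesterol under the control of SREBP2, which is encoded by Srebf2. All 24 listed genes had a probe and 23 were tested, of which 10 fell (43.5%), none rose, and 22 had a negative difference, with a median of -0.57 and a range of -0.88 to 0.33. In the mevalonate part, Fdps, which makes farnesyl diphosphate, was 5.61, 5.40 and 5.56 in B16-D-739 and 6.19, 5.96 and 6.13 in B16-M and fell by 0.57 ± 0.091 on the log2 scale (adjusted p = 0.00364).

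Enzymes of the sterol-forming steps fell too. Fdft1, squalene synthase, fell by 0.70 ± 0.12, Sqle, squalene epoxidase, by 0.58 ± 0.13, and Lss, lanosterol synthase, by 0.72 ± 0.19 on the log2 scale (adjusted p = 0.00448, 0.0228 and 0.041). Msmo1, the sterol methyl oxidase, was 4.28, 4.22 and 4.55 in B16-D-739 and 5.27, 5.19 and 5.23 in B16-M, a difference of -0.88 ± 0.16 (SE, n = 3 and 3; adjusted p = 0.00685), the largest of the tested members. Cyp51, Tm7sf2, Nsdhl and the sterol carrier Stard4 fell as well (-0.64, -0.80, -0.46 and -0.74). Hmgcs1 (-0.76, adjusted p = 0.0501) and Insig1 (-0.63, adjusted p = 0.0827) did not pass, and Srebf2 itself was -0.19, adjusted p = 0.44. Dhcr7 was the 1 member with a positive difference (0.33, adjusted p = 0.11). Srebf1, whose product drives fatty acid synthesis, rose by 0.75 ± 0.18 (SE, n = 3 and 3; adjusted p = 0.0307), the 1 gene of 16 in the fatty acid list that passed, and that list had a median of -0.0021. The number of cholesterol genes that fell was 6 and 3 without B16-M replicates 1 and 2, 3 without B16-D-739 replicate 1, 3 without replicate 2, 5 with no filter on dim probes and 0, 4 and 0 without slides 1, 2 and 3, and their median stayed between -0.59 and -0.50 without any 1 array.

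A few genes for making ribosomes rose in B16-D-739, and genes of DNA replication and mitosis did not pass the test. Ribosome biogenesis is the main growth program driven by the transcription factor MYC. Of 24 tested members, 5 rose (20.8%), none fell and 23 had a positive difference, with a median of 0.43. Myc was 1.72, 1.44 and 1.77 in B16-D-739 and 0.68, 0.56 and 0.93 in B16-M, 1.89-fold higher without overlap (adjusted p = 0.0256). Fbl, the methyltransferase fibrillarin, was 6.33, 6.35 and 6.40 in B16-D-739 and 5.68, 5.42 and 6.05 in B16-M, a difference of 0.64 ± 0.15 (SE, n = 3 and 3; adjusted p = 0.0284). The nucleolar factors Rrp9, Nolc1 and Heatr1 rose by 0.68 ± 0.15, 0.60 ± 0.15 and 0.60 ± 0.11 on the log2 scale (adjusted p = 0.0181, 0.0334 and 0.00672). The abundant nucleolar proteins Npm1 (0.41, adjusted p = 0.12) and Ncl (0.45, adjusted p = 0.161) and the polyamine enzyme Odc1 (0.59, adjusted p = 0.331) did not pass. This count was 13 without B16-M replicate 0 and 1 or 2 without any other single array of the 2 lines, and 0 without any of the slides.

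None of 24 replication genes and none of 24 mitosis genes passed. The replication list had a median of 0.21 with 22 of 24 positive, from -0.28 (Prim1) to 0.36 (Mcm5, a subunit of the replicative helicase). The mitosis list had a median of 0.12 and a range of -0.23 to 0.37. In the respiratory chain list 1 of 27 rose, the complex III core subunit Uqcrc1 (0.42, adjusted p = 0.0265).

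**Figure D4:**
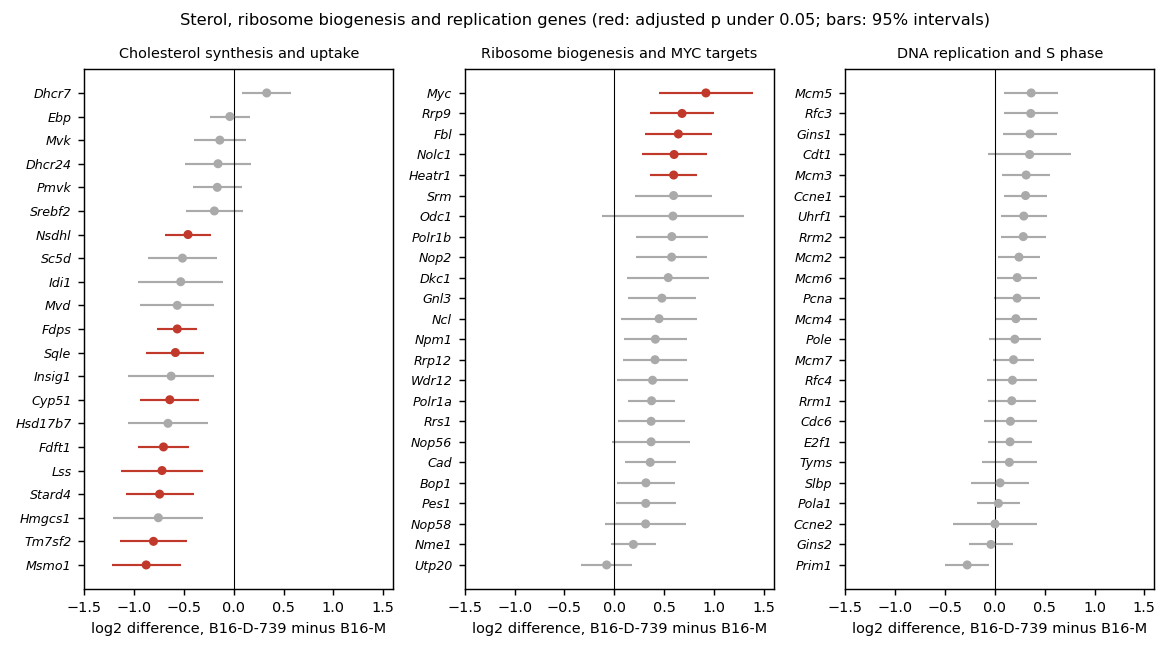
Log2 difference of B16-D-739 minus B16-M (x axis, same scale in the 3 panels) for the tested genes reported here of cholesterol synthesis, ribosome biogenesis and DNA replication, with 95% confidence intervals as bars and genes past an adjusted p of 0.05 in red. Cholesterol genes lie mostly below 0, as do all those in red, ribosome biogenesis genes above 0 with 5 in red, and no replication gene is red.

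Few pigment cell genes passed the test. Of 28 listed genes 27 were tested, 2 rose and 3 fell, and the median was -0.033. Mitf, the master regulator of the lineage, was 6.18, 6.02 and 6.11 in B16-D-739 and 6.04, 5.86 and 6.04 in B16-M, with overlapping arrays and a difference of 0.12 ± 0.16 (95% interval -0.24 to 0.48). Tyr, the rate-limiting enzyme of melanin, was -0.54, adjusted p = 0.0786, and Pmel, Mlana, Dct and Tyrp1 lay between -0.23 and 0.14. Beside Trpm1, Cited1 fell (-0.95, adjusted p = 0.0118) and so did Tspan10 (-0.58, adjusted p = 0.0249). The Wnt effector Lef1 (1.58, adjusted p = 0.0197) and the neural crest factor Tfap2a (0.48, adjusted p = 0.0281) rose. Without B16-M replicate 1 or 2 the counts were 1 and 1, and without B16-D-739 replicate 0, 1 or 2 none rose and 1 fell. Other settings gave more falls. With quantile normalization 1 rose and 7 fell, with a median of -0.21, and 2 of the 9 melanoma markers fell. In the 6 arrays of these lines alone with the slide block, 2 rose and 7 fell.

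Neural crest and stem-like genes moved in part. Pdgfrb, a receptor of neural crest-derived mesenchyme and pericytes, was -2.97, -2.86 and -3.35 in B16-D-739 and -7.02, -6.85 and -6.85 in B16-M, at least 3.53-fold higher (adjusted p = 5.15e-06). The other pericyte and fibroblast markers Dcn, Lum, Col3a1, Thy1 and Rgs5 were above background on no array, and summed levels of the 9 fibroblast and pericyte markers were lower in B16-D-739 (-1.32 to -1.02) than in B16-M (-0.60 to -0.34). The water channel gene Aqp1 rose by 2.42 ± 0.32 (SE, n = 3 and 3; adjusted p = 0.000844) and Ngfr, the CD271 receptor of undifferentiated melanoma cells, was at least 1.29-fold higher (adjusted p = 0.0394). S100b, a calcium-binding protein and melanoma marker, was 3.52, 3.32 and 3.27 in B16-D-739 and 5.25, 4.86 and 4.86 in B16-M, 3.07-fold lower without overlap (adjusted p = 0.000929), and the transcription factor Snai2 (SLUG) fell by 0.67 ± 0.16 on the log2 scale (adjusted p = 0.0285). Only 16 of these 27 genes were tested, since Sox2, Egfr, Twist1, Fosl1, Tnc and 6 others did not reach background on enough arrays, and 3 rose and 2 fell with a median of -0.12. Pdgfrb and Ngfr were above background on no B16-M array and Aqp1 on 1, and over the 12 members above background on all 6 arrays none rose and 3 fell, with a median of -0.35.

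Aldh1a3, the retinaldehyde dehydrogenase used as a marker of stem-like melanoma cells, was -0.60, -0.58 and -0.37 in B16-D-739 and -3.68, -3.71 and -3.87 in B16-M. It was above background in both lines, 9.43-fold higher and without overlap (adjusted p = 6.77e-06). Hmga2, an oncofetal chromatin protein, rose by 1.27 ± 0.23 (SE, n = 3 and 3; adjusted p = 0.0076), and the RNA-binding proteins Igf2bp3 and Igf2bp2 by 1.00 ± 0.12 and 0.53 ± 0.14 (adjusted p = 0.000587 and 0.0391). With Ngfr, 5 of 15 tested stem-like genes rose and none fell. The count of the 15 that rose was 5 without B16-M replicate 0 and 3 without any other single array of these lines. Over the 13 members above background on all 6 arrays, 4 rose and none fell. Cd44, Klf4, Pou5f1 and Nanog did not pass, and Abcb5, Prom1 and Sox2 were not tested. Aldh1a1 was -1.31, adjusted p = 0.134.

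Of 37 listed matrix genes 23 were tested, 6 rose and 1 fell, and the median was 0.28. Beside Hapln1, Emilin1 and Col4a1, the laminin chain Lamb1 was 1.46, 1.53 and 1.62 in B16-D-739 and -1.52, -1.45 and 0.52 in B16-M. Its B16-M array on slide 3 was higher than the others, and the difference was 2.35 ± 0.45 (SE, n = 3 and 3; adjusted p = 0.00958). The matricellular gene Thbs2 rose by 1.84 ± 0.29 (SE, n = 3 and 3; adjusted p = 0.00321) and Efemp2, a fibulin of elastic fibres, by 0.60 ± 0.14 (adjusted p = 0.0229). The collagen I chain gene Col1a2 was -2.08, -2.20 and -2.26 in B16-D-739 and -0.90, -1.11 and -0.59 in B16-M and fell by 1.31 ± 0.24 on the log2 scale (adjusted p = 0.0075). Fn1 (0.90, adjusted p = 0.24), Col4a2 (0.75, adjusted p = 0.299) and Hspg2 (0.57, adjusted p = 0.174) were positive and did not pass. Hapln1, Emilin1 and Col4a1 passed the background filter through B16-D-739 alone, and over the 15 members above background on all 6 arrays 2 rose and 1 fell. Among 14 collagen processing genes Fkbp10 was the 1 that passed.

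Of 17 tested matrix proteases and inhibitors, 3 rose and none fell. Ctsk, cathepsin K, a collagen-degrading protease, was -0.93, -1.05 and -0.79 in B16-D-739 and -3.70, -3.92 and -3.55 in B16-M, 6.94-fold higher (adjusted p = 3.09e-05). The metalloproteases Adam19 and Adam12 rose by 2.36 ± 0.27 and 1.49 ± 0.30 on the log2 scale (adjusted p = 0.000326 and 0.0123). In the actin list of 27, Myl9, Capg, Mrtfa and Cnn3 rose and Ccn2 (CTGF), a YAP target, fell (-0.67, adjusted p = 0.0277), but 1 member rose without any single array of these lines or without the slide block. Over the 25 actin list members above background on all 6 arrays, 3 rose and 1 fell. Of 20 cadherins and integrins 1 passed, the integrin chain Itga9, which fell (-0.80, adjusted p = 0.00352). The endothelial gene Vwf rose, with 1 B16-M array above background (3.49, adjusted p = 0.00655), while 5 of the 7 endothelial markers were above background on no array of either line.

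Cell cycle inhibitors and dormancy regulators showed changes in single genes. Of 21 tested inhibitors and p53 targets 4 fell and 1 rose. Over the 19 members above background on all 6 arrays, 2 fell and 1 rose. Cdkn1b, which encodes p27, was 2.79, 2.79 and 2.86 in B16-D-739 and 3.38, 3.24 and 3.24 in B16-M, a difference of -0.47 ± 0.098 (SE, n = 3 and 3; adjusted p = 0.0147). Cdkn2c (p18) fell by 0.68 ± 0.15 and the imprinted Cdkn1c (p57) by 1.84 ± 0.46 on the log2 scale (adjusted p = 0.0189 and 0.0344), and the p53 and p63 target Perp was at least 1.91-fold lower (adjusted p = 0.00261). The p53 target Zmat3 rose (0.46, adjusted p = 0.0498), and Cdkn1a, which encodes p21, was 0.61, adjusted p = 0.311. Without B16-M replicate 1 or 2, or B16-D-739 replicate 0 or 2, 1 gene fell and none rose.

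Among 22 tested dormancy regulators 2 rose and 3 fell. Over the 20 members above background on all 6 arrays, 1 rose and 4 fell. Lifr, the leukaemia inhibitory factor receptor linked to dormancy of breast cancer cells in bone, was at least 2.45-fold higher (adjusted p = 5.89e-05), and Tyro3, a GAS6 receptor, was 3.40, 3.33 and 3.37 in B16-D-739 and 2.37, 2.18 and 2.51 in B16-M. Tyro3 differed by 1.01 ± 0.12 (SE, n = 3 and 3; adjusted p = 0.000527) by its brightest probe. With all probes of the gene averaged, the difference was -0.0084, so its direction rests on that probe. The metastasis suppressor Cd82 was 1.58, 1.34 and 1.40 in B16-D-739 and 3.22, 2.84 and 3.00 in B16-M, 2.99-fold lower (adjusted p = 8.33e-05), and Rarb, a retinoic acid receptor, fell with Cdkn1b (-0.81, adjusted p = 0.0431). Nr2f1, a nuclear receptor that sets dormancy in head and neck cancer cells, was -0.18, adjusted p = 0.352, Tgfb2 0.59, adjusted p = 0.463 and Axl -0.66, adjusted p = 0.498. Gas6, Mertk, Bmp4 and Bmp7 were not tested.

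Changes in metabolism, redox and cell death were mixed. In glycolysis, Hk1, hexokinase 1, was 3.62, 3.37 and 3.70 in B16-D-739 and 2.13, 1.73 and 1.76 in B16-M, 3.22-fold higher (adjusted p = 8.33e-05), and Pfkp and Eno1 rose (0.83, adjusted p = 0.0394, and 0.37, adjusted p = 0.0345). The stress and hypoxia genes Ddit4 (-1.42, adjusted p = 0.00696), Aldoc (-1.06, adjusted p = 0.0302) and Adm (-0.90, adjusted p = 0.025) fell, so that 3 of 28 rose and 3 fell, and 1 and 1 without B16-M replicate 1 or 2 or B16-D-739 replicate 0 or 2. Of 26 glutathione and antioxidant genes Gsta4 rose and 4 fell, the transferases Gstt3 (-1.03, adjusted p = 1.96e-05), Mgst1 (-1.32, adjusted p = 0.0084), Gsta2 (-1.04, adjusted p = 0.00854) and Gstm5 (-0.53, adjusted p = 0.01). Gsta2 and Gstm5 have near-identical relatives. Of 21 apoptosis regulators 4 rose, among them Ripk3, the BH3 protein gene Bid (0.69, adjusted p = 0.00411) and the inflammatory caspase gene Casp1 (2.50, adjusted p = 0.034). The count was 2 without B16-M replicate 1 or 2 or B16-D-739 replicate 0 or 2, and 1 without any slide. Ripk3 passed the background filter through B16-D-739 alone, and over the 19 members above background on all 6 arrays 2 rose.

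Single genes passed in the other lists. In Wnt signalling, Tcf7 was at least 4.48-fold higher (adjusted p = 0.000457) and Wnt6 fell (-0.92, adjusted p = 0.0284). Among imprinted genes, Mest rose (2.14, adjusted p = 0.00777) and Plagl1 fell (-0.51, adjusted p = 0.0092), as did Cdkn1c. Among 11 tested cytokines and chemokines Il18 (-1.24, adjusted p = 0.023) and Csf1 (-0.47, adjusted p = 0.0242) fell and Ctf1 rose. Batf3 (0.96, adjusted p = 0.000457), Cbs, the first enzyme of transsulfuration (1.14, adjusted p = 0.0298), and Smad3 (0.31, adjusted p = 0.0433) rose, and Phlda1, the chaperone gene Dnajb9, the lysosomal sialidase Neu1 and the gap junction gene Gjb2 fell (-0.42, -0.76, -0.61 and -0.52). None of 8 tested Notch genes passed.

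Of 8 genes taken from those that the study names for melanoma, 4 passed, against 7.09% of all genes and unnamed transcripts tested. Among the 13436 tested entries with a symbol 1270 passed. They are a part of the genes it names, and since the study chose them they are no independent evidence. In B16-F1GFP-D it names Septin9 and Capg as proteins that rose. Ass1, S100b, Wasf1, Lta4h and Eef2 are named as proteins that fell, with gene deletions in dormant cells only. Ckb is named as a mutated and amplified gene. Here RNA of another line was measured, so the values do not test those findings. Beside S100b, Ckb, the brain creatine kinase, was 4.09, 3.71 and 3.88 in B16-D-739 and 3.00, 2.51 and 2.27 in B16-M, 2.46-fold higher (adjusted p = 0.00293). Capg, an actin filament capping protein, rose by 0.78 ± 0.20 (SE, n = 3 and 3; adjusted p = 0.0408) and Lta4h, leukotriene A4 hydrolase, fell by 0.42 ± 0.085 on the log2 scale (adjusted p = 0.0137). Wasf1 (-0.17, adjusted p = 0.323), Septin9 (0.073, adjusted p = 0.682), the elongation factor Eef2 (-0.041, adjusted p = 0.876) and the arginine synthesis enzyme Ass1 (0.14, adjusted p = 0.895) did not pass, and the 95% interval of Ass1 ran from -0.80 to 1.08. That interval draws on the spread of other lines too (SD 1.14 in B16-D, against 0.20 in B16-D-739). On the 3 slides Ass1 differed by 0.10 to 0.17.

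Direct tests against the other dormant lines show where B16-D-739 stands apart from them. It differed in 73 genes from B16-D (0.327% of 22337; 58 higher, 0.26%, and 15 lower, 0.0672%), in 48 from the sister line B16-D-733 (0.215%; 15 higher, 0.0672%, and 33 lower, 0.148%) and in 3030 from the sister line B16-D-735 (13.6%; 1628 higher, 7.29%, and 1402 lower, 6.28%). All these comparisons share the B16-D-739 arrays. In all, 10 genes or transcripts passed in the same direction against all 4 other lines, 3 higher and 7 lower, and were picked out after their values were seen. Higher were Ctsk, the molybdenum cofactor sulfurase gene Mocos and the predicted gene Gm28321. Lower were Tvp23a, Rangrf, Ippk, which makes inositol hexakisphosphate, Flywch2, the semaphorin receptor gene Plxna4, and the transcripts BC087921 and AK037107.

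Ctsk in B16-D-739 exceeded B16-D by 2.35 ± 0.24 (adjusted p = 0.00112), B16-D-733 by 3.13 ± 0.22 (adjusted p = 7.14e-05) and B16-D-735 by 1.58 ± 0.23 (adjusted p = 0.00158). Ippk was 0.16, 0.21 and 0.22 in B16-D-739 and 1.68, 1.78 and 1.55 in B16-M, and its mean was 1.23 in B16-D, 1.49 in B16-D-733 and 2.13 in B16-D-735. Tvp23a was above background on no B16-D-739 array and had mean levels of -3.46, -1.96 and -1.41 in those lines. In each of these genes the 3 B16-D-739 arrays lay apart from every array of the other lines in the fit.

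**Figure D5:**
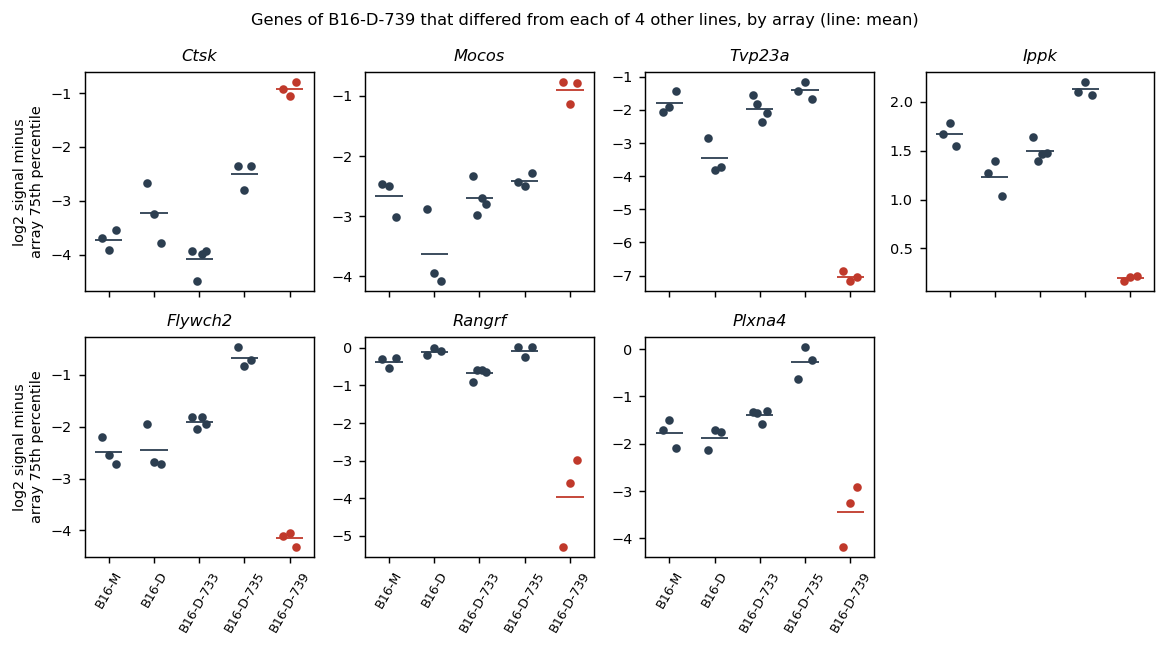
Level of the 7 named genes that passed against all 4 other lines, as log2 signal minus the array 75th percentile (y axis, scaled per panel), in each array (points) with the mean of each line (bars), B16-D-739 in red. Ctsk and Mocos lie above the other lines and Tvp23a, Ippk, Flywch2, Rangrf and Plxna4 below them. The B16-D array left out of the fit is not shown.

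A gene that passed against 1 line and not against another is not thereby shown to differ between those lines, so values are given side by side. Among matrix genes, Hapln1 had mean levels of -1.91 in B16-D, 0.78 in B16-D-733 and -6.19 in B16-D-735, where 1 of 3 arrays was above background. Col4a1 had -1.63 and -1.46 in B16-D and B16-D-733 and was above background on no B16-D-735 array. Of the interferon list, Usp18 differed from B16-D-735 by -4.25 ± 0.29 (adjusted p = 6.67e-06) and Irf7 by -3.17 ± 0.23 (adjusted p = 8.44e-06). Against B16-D the same genes were -1.03 and -0.40, and none of the list passed against B16-D or B16-D-733. H2-K1 was higher than in B16-D by 1.12 ± 0.14 (adjusted p = 0.00407) and than in B16-D-735 by 1.76 ± 0.13 (adjusted p = 1.19e-05), and differed from B16-D-733 by 0.67 ± 0.12 (adjusted p = 0.0731).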

How the data were processed

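The authors deposited scanner output of 1-colour Agilent mouse arrays. Per the file headers, the processed intensity of each spot was background-subtracted and spatially detrended by Agilent Feature Extraction 10.7.3.1, with no scaling between arrays. The members and gene lists were chosen with earlier results of these data known.

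Control spots and outlier-flagged spots were left out, spots of a probe were averaged, and log2 intensity minus each array's 75th percentile was taken. Probes were joined to genes through RefSeq accessions (32994 of 56605 probes, 22911 symbols), with the other transcripts kept under their accessions. The brightest probe stood for a gene, tested where it was well above background on at least 3 of the 6 arrays (22337 genes). limma 3.58.1 (R 4.3.3) was fitted to 16 melanoma arrays with slide as a block, 9 residual and 2.09 prior degrees of freedom, and Benjamini-Hochberg adjustment over all genes. Named genes are the 12 largest differences in each direction among called genes with a symbol whose lines did not overlap, members of the lists, and 8 genes named by the study. Arrays with the same number lay on the same slide in these lines, and their deviations correlated at 0.87, 0.66 and 0.80, so the block pairs them. The procedure was tested on simulated data with 200 changed genes among 22299. Noise was normal and independent between arrays, with each gene's own residual spread, and every probe was treated as above background. It recovered 20% of log2 changes of 0.5, 76% of changes of 1, 88% of changes of 2 and 96% of changes of 3. Of its calls there, 6.04% were false. Fewer genes were changed there than were called in the data, so these shares hold for that setting only. A gene that did not pass may thus still differ, also by a log2 change of 1 or more. The leukemia arrays were not used. Some list members count in their lists but are not reported here by name. For arrays, the number of arrays limits the precision.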

Additional observations from a re-analysis of the deposited data

Results flagged for a closer look

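Among the 24 genes with the largest fitted differences from B16-M, the difference of B16-D-739 from a further dormant line also passed in these direct tests of limma, given as log2 differences or, where a line was above background on no array, as a lower limit of the fold. Against B16-D, B16-D-739 was higher in Fkbp10 (1.71), Emilin1 (0.87), Cgnl1 (1.40), Fabp3 (2.19) and Ripk3 (1.43, with 2 of 3 B16-D arrays above background) and lower in Rangrf (-3.93). Tvp23a was at least 2.69-fold lower than in B16-D. Against B16-D-733 it was lower in Rangrf (-3.23), and Tvp23a was at least 7.62-fold lower. Against B16-D-735 it was higher in Hapln1 (6.30, with 1 of 3 B16-D-735 arrays above background), Fkbp10 (4.14), Myl9 (0.98), Ctf1 (3.12), Cgnl1 (2.37), Rcn3 (1.47) and Ripk3 (1.87), and Col4a1 was at least 9.72-fold higher. It was lower than B16-D-735 in Emilin1 (-0.70), Kcnj13 (-2.30), Rangrf (-3.89) and Trpm1 (-2.24). Tvp23a was at least 11.2-fold, Hspb8 at least 30.7-fold, Lhx5 at least 4.26-fold, Nrk at least 8.13-fold and Slx at least 4.84-fold lower than in B16-D-735. In Kcnj13 and Rangrf 2 of 3 B16-D-739 arrays were above background. Emilin1 was thus higher than in B16-M and B16-D and lower than in B16-D-735. The adjusted p of these differences ranged from 9.3e-07 to 0.0439.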

How the results depend on the processing

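The number of genes that differed between B16-D-739 and B16-M (1584) was 814 with no filter on dim probes, 911 with no replicate block and 472 in the 6 arrays of these lines alone with no replicate block. Without 1 array it lay between 694 and 1618, and without slides 1, 2 and 3, which were chosen after seeing the data, it was 324, 571 and 223. Against B16-D-735 the count was 1637 with no replicate block and 1433 to 2691 without 1 array. The counts against B16-D were 27 to 153 and those against B16-D-733 30 to 45 without 1 array. Among the named genes past the threshold, 1 reversed its direction, Tyro3, at -0.0084 with the mean of all probes of a gene. The cause was not tested. The 133 genes followed include Wasf1, Septin9, Eef2 and Ass1, which had no call to lose. Of the 133 genes, 33 lost their call with no replicate block, 11 with quantile normalization, 18 with normexp background correction and 51 with no filter on dim probes. In the 6 arrays alone with no replicate block 71 lost it, and without 1 array 18 to 59. Without slides 1, 2 and 3 the numbers were 88, 68 and 94. All these losses were in the same direction. The number of arrays and the signal over background limit what could be measured. Genes that did not reach background on 3 of the 6 arrays were not tested, and a fold against a line below background is a lower limit.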
